A study of Mus musculus with 10 samples.

Results

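The comparison of day 6 with day 2 spans the course from epiblast-like cells to neuromesodermal progenitors (NMPs) and leaves the transient day 3 state aside. It uses 4 of the 10 RNA-seq libraries of the series, chosen by their labels: 2 of day 2 (D2) and 2 of day 6 (D6). All came from ES-Bruce4, an embryonic stem cell (ESC) line of C57BL/6 mice, and are labelled wild type, with no altered allele named. The line was kept with serum and LIF on fibroblast feeders and depleted of feeders before plating. From day 0 the cells were in serum-free N2B27 medium with bFgf at 10 ng/ml. CHIR99021, a Gsk3 inhibitor that switches on the canonical Wnt pathway, was supplied at 5 µM from day 2, and the dishes were split on day 3. D2 cells are labelled ES-derived epiblast stem cells and D6 cells ES-derived neuromesodermal progenitors, and neither had received Gdf11, which the protocol adds on day 6. The B27 supplement was with or without vitamin A, the precursor of retinoic acid, and the labels do not say which. They also do not say whether the 2 libraries of a day were separate cultures. A p value here reflects the spread within the groups of all 10 libraries of the series, shared in part across genes. Part or all of that spread may be technical.

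Epiblast cells are pluripotent and epithelial, and hold the factors Oct4 and Sox2 with the new-methylation enzymes Dnmt3a and Dnmt3b at high levels. NMPs sit at the tail end of the embryo, where Wnt and Fgf signals keep them dividing, and supply both spinal cord and the paraxial mesoderm of the somites. They are known for the joint presence of T (Brachyury) and Sox2, for Cdx factors and for the stepwise opening of the Hox clusters, whose order along the chromosome follows the order of use along the body axis.

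Each library held 31078950 to 31917999 gene counts. Levels are given in CPM, read counts scaled to library size after TMM correction, as replicate 1 and replicate 2 of each day. The call of a gene needed an adjusted p under 0.05 in edgeR's quasi-likelihood test with Benjamini-Hochberg adjustment, and log2 fold changes (D6 against D2) follow with their standard error. Of 18818 genes tested 13089 (69.6%) were called, 6414 (34.1%) higher and 6675 (35.5%) lower on D6. A stricter test against a 2-fold change called 1496 genes (7.95%) higher and 2127 (11.3%) lower, the share against which the counts of each gene group below are to be read. The median log2 fold change of all tested genes was -0.01, with 5% of genes under -2.41 and 5% over 2.1. Mitochondrial transcripts took 1.86% to 1.90% of counts on D2 and 2.38% to 2.40% on D6. RNA of whole dishes was measured, so fewer cells of a type and less RNA per cell cannot be told apart.

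The largest rises were mainly of transcription factors of the trunk. Zic1, a zinc finger factor of dorsal neural tube and somites, stood at 1.54 and 1.81 CPM on D2 and 378 and 354 CPM on D6 (7.77 ± 0.09, adjusted p = 1.91e-22). Cdx2, a caudal-type homeobox factor upstream of Hox genes, was at 0.590 and 0.593 CPM on D2 and 109 and 113 CPM on D6 (7.55 ± 0.09). Meox1, a homeobox factor of somites, was at 0.295 and 0.198 CPM on D2 and 48.6 and 37.7 CPM on D6 (7.43 ± 0.20). Pax7, a paired-box factor of dorsal neural tube and muscle progenitors, had 3 counts over both D2 libraries against 24.7 and 21.4 CPM on D6, a ratio of 468 (95% interval 160 to 2270, counting error only). Hoxd3 had 0 counts on D2 and 351 and 299 on D6, at least 213-fold higher with a floor of 3 counts over the D2 group. Not all were regulators: Sparcl1, a secreted matrix glycoprotein, rose by 8.93 ± 0.12, Arg1, the arginase of the urea cycle, by 7.65 ± 0.19 (6.76 with the second count table) and S100g, a calcium-binding protein, by 7.71 ± 0.22.

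The largest falls were of epiblast regulators together with genes of other kinds. Otx2, a homeobox factor of epiblast and head, was at 35.6 and 36.7 CPM on D2 and 0.483 and 0.710 CPM on D6 (-5.91 ± 0.16, adjusted p = 1.83e-17). Pou3f1 (Oct6), a POU factor of primed epiblast, was at 91.4 and 96.5 CPM on D2 and 2.03 and 0.968 CPM on D6 (-5.97 ± 0.13, with -6.59 without D6 replicate 1). Wt1, a zinc finger factor best known from kidney and gonad, was at 34.8 and 31.8 CPM on D2 and 0.676 and 0.646 CPM on D6 (-5.64 ± 0.13). Pim2, a serine/threonine kinase that promotes survival, was at 397 and 383 CPM on D2 and 10.8 and 10.8 CPM on D6 (-5.18 ± 0.06). Structural genes of differentiated cells were among them. Prph, the intermediate filament peripherin of neurons, was at 63.2 and 66.1 CPM on D2 and 0.933 and 0.936 CPM on D6 (-6.11 ± 0.12). Actn3, the actinin of fast muscle, was at 38.2 and 41.04 CPM on D2 and 0.740 and 0.807 CPM on D6 (-5.67 ± 0.13).

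**Figure D1:**
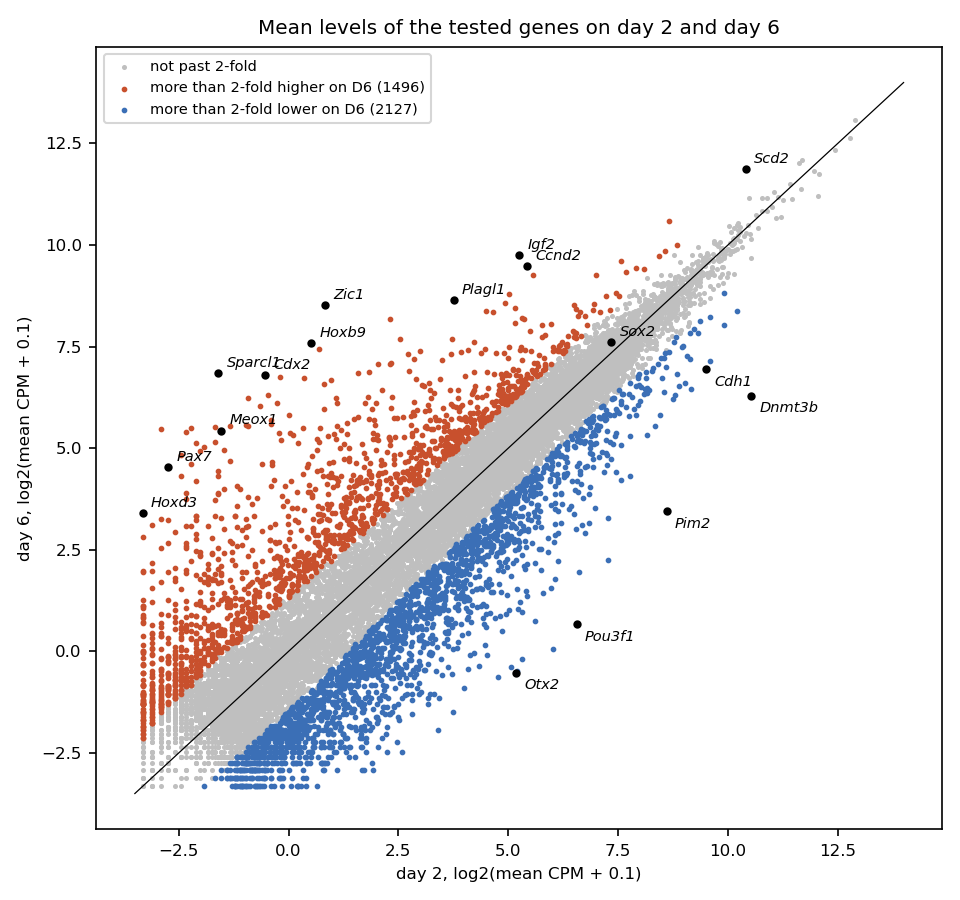
Mean CPM of each of the 18818 tested genes on D2 (x axis) and D6 (y axis), both as log2(mean CPM + 0.1), with the line of equal level. The 1496 genes past the 2-fold test and higher on D6 are in red, the 2127 lower are in blue, and black points mark genes named in the text, such as Zic1 and Cdx2 above the line and Dnmt3b and Pim2 below it.

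By CPM gained or lost, the order was different. The largest gain was of Scd2, a fatty acid desaturase (1350 and 1365 CPM on D2 and 3824 and 3650 CPM on D6, 1.46 ± 0.03). Col4a1, a basement membrane collagen chain, was next (385 and 429 CPM on D2 and 1392 and 1673 CPM on D6, 1.91 ± 0.09). The growth factor Igf2 (38.7 and 37.4 CPM on D2 and 865 and 869 CPM on D6, 4.51 ± 0.06, or 5.22 in the second deposited count table) rose from a modest level. So did the G1 cyclin Ccnd2 (40.2 and 45.6 CPM on D2 and 753 and 676 CPM on D6, 4.06 ± 0.06). Of the 10 largest gains 5 were mitochondrial transcripts, all with small fold changes except the ribosomal RNA mt-Rnr2 (1.17 ± 0.04). The largest loss was of Dnmt3b (1480 and 1470 CPM on D2 and 75.7 and 80.5 CPM on D6, -4.24 ± 0.04). Next came the scaffold gene Akap12 (1183 and 1185 CPM on D2 and 322 and 343 CPM on D6, -1.83 ± 0.04). Mthfd1, an enzyme of the folate cycle, was at 963 and 956 CPM on D2 and 266 and 259 CPM on D6 (-1.87 ± 0.04).

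Of 12 primed epiblast genes 9 fell, 6 of them by more than 2-fold (11.3% of all tested genes did), and 2 rose (median -1.54). Fgf5, the ligand that marks primed epiblast, was at 19.7 and 20.1 CPM on D2 and 0.644 and 0.710 CPM on D6 (-4.87 ± 0.17, adjusted p = 1.05e-15). Foxd3, a forkhead factor of epiblast and neural crest, was at 14.8 and 16.6 CPM on D2 and 0.418 and 0.452 CPM on D6 (-5.16 ± 0.17). The rises were small, in the Wnt effector Lef1 (0.46 ± 0.06) and the Hippo effector Tead2 (0.42 ± 0.04). All 6 epiblast markers, chosen with earlier results of these data known, fell. Their summed level, most of it Dnmt3b and Pou5f1, went from 2380 CPM in each D2 library to 229 and 263 CPM on D6. Of 15 general pluripotency genes 13 fell, 10 by more than 2-fold (median -1.95). Pou5f1 (Oct4) remained well detected at 568 and 562 CPM on D2 and 132 and 161 CPM on D6 (-1.95 ± 0.07). Utf1 (-3.36 ± 0.06), a chromatin factor of pluripotent cells, Zscan10 (-2.86 ± 0.08), a zinc finger factor, and Tdgf1 (-2.84 ± 0.06), the Nodal co-receptor Cripto, fell further. Sox2 was 1 of the 2 members called higher, at 167 and 159 CPM on D2 and 204 and 187 CPM on D6 (0.26 ± 0.04, adjusted p = 2.56e-05). Tdh, a threonine dehydrogenase of mouse ESCs, was the other (0.29 ± 0.07, or 0.12 and not called without D6 replicate 2).

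Genes of naive pluripotency, the state before epiblast, did not move one way: 5 of 12 rose and 5 fell (median 0.17). Klf4, a Krüppel-like factor, was at 20.7 and 23.1 CPM on D2 and 48.2 and 52.3 CPM on D6 (1.198 ± 0.08, adjusted p = 1.92e-11). Tfcp2l1, a grainyhead-like factor, was at 45.9 and 50.98 CPM on D2 and 88.2 and 112 CPM on D6 (1.05 ± 0.08). Both were higher on D6. Fgf4, the ligand that drives ESCs out of the naive state, was at 63.7 and 61.95 CPM on D2 and 10.7 and 13.5 CPM on D6 (-2.37 ± 0.08). Nanog was at 134 and 144 CPM on D2 and 70.4 and 93.8 CPM on D6 (-0.76 ± 0.08). Both were lower on D6. Esrrb, a nuclear receptor of naive cells, stood at 78.3 and 83.8 CPM on D2 and 79.4 and 93.7 CPM on D6 and was not called (0.10 ± 0.06). The 6 naive markers summed to 316 to 341 CPM on D2 and 320 to 392 CPM on D6.

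**Figure D2:**
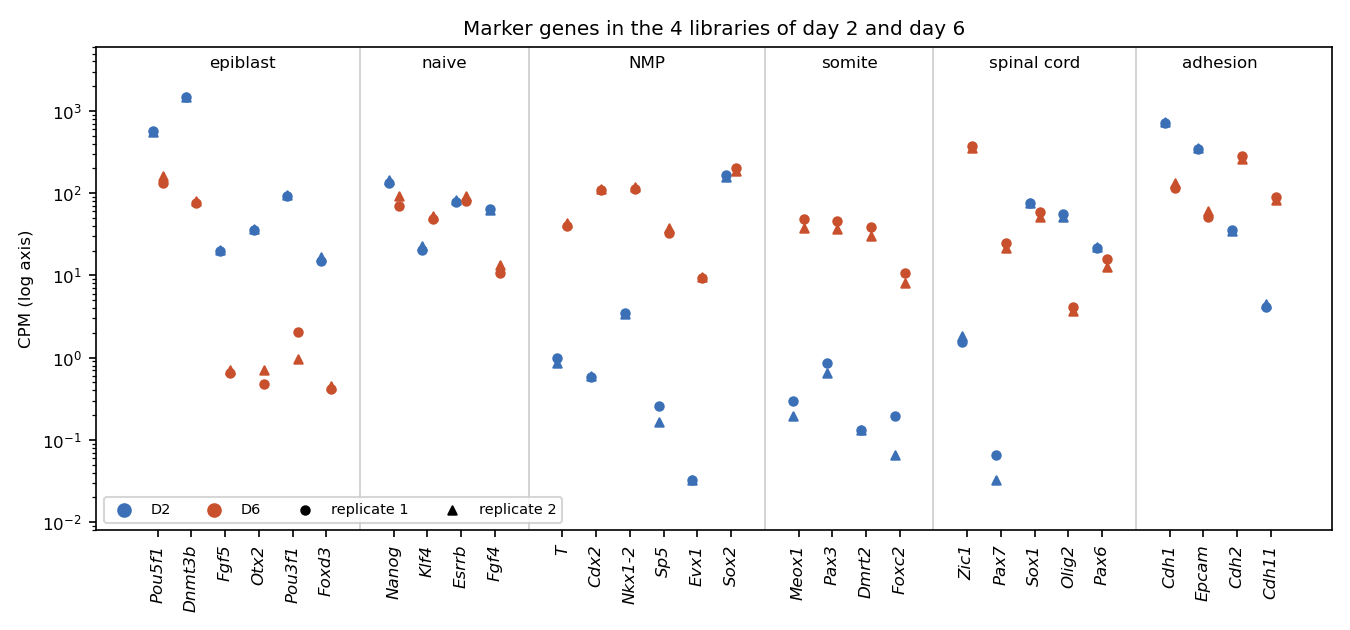
CPM on a log axis of genes that mark epiblast, naive ESCs, NMPs, somites, spinal cord and cell adhesion, with D2 in blue, D6 in red, replicate 1 as a circle and replicate 2 as a triangle. The 2 libraries of a day lie close together in most genes, T and Cdx2 move from under 1 CPM to over 40 CPM, and the days overlap in Esrrb.

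Of the 14 genes of the DNA methylation machinery 7 fell, 5 by more than 2-fold, and 5 rose (median -0.11). The falls included the enzymes that place new methyl groups. Besides Dnmt3b this held for Dnmt3a (458 and 455 CPM on D2 and 111 and 115 CPM on D6, -2.01 ± 0.04). Their inactive partner Dnmt3l fell too (151 and 152 CPM on D2 and 25.6 and 31.02 CPM on D6, -2.42 ± 0.07). Dnmt1, which copies methylation at replication, rose slightly (0.35 ± 0.03), and its recruiter Uhrf1 was not called (0.05 ± 0.05). Per kilobase of gene length the order of the enzymes changed: Dnmt3b was at 289 RPKM and Dnmt1 at 49.1 RPKM on D2, against 15.3 and 62.4 RPKM on D6. Among the Tet enzymes, which oxidise methylcytosine, Tet1 fell (349 and 372 CPM on D2 and 105 and 108 CPM on D6, -1.76 ± 0.04). Tet3 rose (42.3 and 43.3 CPM on D2 and 118 and 107 CPM on D6, 1.39 ± 0.05).

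Germline genes that promoter methylation is known to keep silent in somatic cells fell over the same days. Of 16 listed, 14 had counts enough for a test. Of these 13 fell, 8 by more than 2-fold, and 0 rose in edgeR, DESeq2 or limma-voom, or at an unadjusted edgeR p under 0.05 (median -2.09). Their RNA was present on D2 and lower on D6. Sycp3, of the synaptonemal complex of meiosis, was at 25.3 and 26.4 CPM on D2 and 1.80 and 1.52 CPM on D6 (-3.96 ± 0.18, adjusted p = 6.83e-14). Mael, a piRNA pathway gene, was at 12.02 and 11.96 CPM on D2 and 1.19 and 1.06 CPM on D6 (-3.40 ± 0.15). Ddx4 (Vasa), a germ cell RNA helicase, was at 38.8 and 36.9 CPM on D2 and 6.89 and 7.88 CPM on D6 (-2.36 ± 0.08). Dazl, an RNA-binding protein of germ cells, was the tested member not called (-0.12 ± 0.14). Many such promoters carry the E-box CACGTG, which the repressor complex of Mga and Max binds and whose central CG can be methylated. Over the main fit and its alternatives, Mga was lower on D6 (log2 fold change -1.126 to -1.017) and Max was not called (0.019 to 0.13). The part of this complex in the falls was not tested. Of the 15 listed germline genes with a promoter in RefSeq (250 bases before to 50 after the start, GRCm38.p6), 9 held CACGTG, against 7.15% of 32851 promoters. Here and for the motifs below, a listed gene counted if any of its promoters matched, whereas the share is per promoter. A gene with several promoters thus had more chances of a match than the share allows for. The hexamer reads the same on both strands. The stretches around the matches before the start of 3 members that fell are shown 5′ to 3′ in the direction of the gene, with CACGTG in capitals.
Sycp3 (chr10:88459503-88459569, plus strand): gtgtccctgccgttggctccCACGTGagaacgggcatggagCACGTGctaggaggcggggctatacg
Ddx4 (chr13:112652314-112652359, minus strand): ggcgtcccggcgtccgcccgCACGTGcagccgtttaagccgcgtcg
Mael (chr1:166238942-166238987, minus strand): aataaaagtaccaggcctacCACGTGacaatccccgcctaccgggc
Among the 9 with the hexamer 9 fell, and among the 6 without it 3 fell (Tex19.1, Rpl10l and Tuba3a), Dazl was not called and Asz1 and Tex101 were not tested. These matches are letters in a window and do not show binding or methylation. Genes of the transient two-cell-like state of ESC cultures also fell, 9 of 10 tested and all 9 by more than 2-fold, or 3 fell where at least 1 CPM in 2 libraries was required. Zscan4d, a telomere factor of that state, was 1 of them (4.94 and 4.45 CPM on D2 and 0.258 and 0.452 CPM on D6, -3.71 ± 0.27). The Zscan4 and Usp17l genes are near-identical copies whose reads may be split. The filter of 1 CPM in 2 libraries tested fewer genes (15908 against 18818). How many two-cell genes it kept is not given, so the 3 are not to be read out of 10.

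Of 16 genes of caudal epiblast and NMPs 15 rose, 14 by more than 2-fold, and 1 fell (median 3.24). T, the T-box factor of primitive streak and NMPs, was at 0.982 and 0.856 CPM on D2 and 40.1 and 43.3 CPM on D6 (5.50 ± 0.10, adjusted p = 5.26e-20). Nkx1-2, a homeobox factor of the NMP region, was at 3.54 and 3.36 CPM on D2 and 113 and 120 CPM on D6 (5.08 ± 0.08), and the Cdx genes Cdx1 and Cdx4 rose by 6.98 ± 0.14 and 4.40 ± 0.07. Evx1, an even-skipped homeobox factor of the streak, had 2 counts over both D2 libraries and 588 over both D6 libraries, a ratio of 289 (95% interval 79.5 to 2390). The Wnt ligand Wnt5a (1.77 and 1.94 CPM on D2 and 20.98 and 20.6 CPM on D6, 3.48 ± 0.12) rose too. So did the Fgf ligand Fgf8 (1.28 and 1.71 CPM on D2 and 12.1 and 11.8 CPM on D6, 2.99 ± 0.16). Wnt8a, a streak ligand, was the member that fell (18.4 and 18.3 CPM on D2 and 8.14 and 7.84 CPM on D6, -1.199 ± 0.08). Wnt3a, which keeps NMPs, rose but stayed under 1 CPM in every library (2.55 ± 0.51). The 7 NMP markers, all of which rose, summed to 168 to 176 CPM on D2, most of it Sox2, and to 641 to 655 CPM on D6.

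Wnt feedback genes, which CHIR99021 is known to induce through beta-catenin and Tcf/Lef factors, rose in 14 of 15 cases, 10 by more than 2-fold (median 2.01). Notum, a secreted enzyme that inactivates Wnt proteins, was at 3.11 and 2.70 CPM on D2 and 112 and 120.2 CPM on D6 (5.32 ± 0.11). The intracellular inhibitors Nkd1 (7.34 and 8.46 CPM on D2 and 168 and 167 CPM on D6, 4.41 ± 0.09) and Axin2 (3.47 ± 0.08) rose more than 2-fold as well. Sp5, a zinc finger repressor among the most direct targets, was at 0.262 and 0.165 CPM on D2 and 33.1 and 38.2 CPM on D6 (7.36 ± 0.20). Its promoter, printed because it holds the Tcf/Lef core CTTTGA at 2 places (in capitals), lies at chr2:70474699-70474844 on the plus strand.
Sp5: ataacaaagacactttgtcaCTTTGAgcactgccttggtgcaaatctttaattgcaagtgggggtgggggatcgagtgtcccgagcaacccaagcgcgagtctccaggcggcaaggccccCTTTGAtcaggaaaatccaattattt
CTTTGA or its reverse complement was found in 3 of the 8 Wnt feedback members with a promoter, Sp5, Lef1 and Dkk1, and in 16% of all promoters. The single member called lower, Kremen1 (-0.16 ± 0.06), was not called by DESeq2, without a filter, without D2 replicate 2 or without D6 replicate 1. Of 18 Wnt ligand genes tested 11 rose and 3 fell, or 7 rose where at least 1 CPM in 2 libraries was required. That filter tested fewer genes, and how many Wnt ligands it kept is not given. Wnt6 (4.06 ± 0.26) and Wnt4 (2.56 ± 0.17) were among the rises and Wnt9a (-1.92 ± 0.13) among the falls.

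All 39 Hox genes rose, 38 by more than 2-fold. The medians were 4.79 in the 12 genes of paralogue groups 1 to 4, 6.29 in the 15 of groups 5 to 9 and 4.18 in the 12 of groups 10 to 13. The last was 3.57 with the genes at 0 on D2 set to their bounds. Summed levels on D6 were 404 to 440 CPM in groups 1 to 4, 618 to 674 CPM in groups 5 to 9 and 88.0 to 92.9 CPM in groups 10 to 13. On D2 they were 37.6 to 38, 17.1 to 17.6 and 4.85 to 4.91 CPM. In the trunk groups Hoxb9 reached 199.6 and 184 CPM from 1.51 and 1.15 CPM (7.17 ± 0.11), and Hoxc8 rose by 7.27 ± 0.17. In the posterior groups the D6 level was uneven. Hoxc10, a factor of the lumbar region, was at 0.0655 and 0.165 CPM on D2 and 47.05 and 43.6 CPM on D6 (8.58 ± 0.17, with 9.35 without D2 replicate 2). Hoxc11 had 0 counts on D2 and 1.77 and 2.23 CPM on D6 (at least 40.6-fold higher), and Hoxc12 had 0 counts on D2 and 6 and 8 on D6 (at least 4.58-fold higher). Group 13, which ends the axis, stayed low. Hoxd13 was at 1.15 and 1.48 CPM on D2 and 4.18 and 4.36 CPM on D6 (1.70 ± 0.19). Hoxc13 was at 1.08 and 0.593 CPM on D2 and 1.71 and 1.87 CPM on D6 (1.09 ± 0.27, not past the 2-fold test). Hoxb13 was at 0.196 and 0.0988 CPM on D2 and 0.515 and 0.742 CPM on D6 (2.06 ± 0.45). Hox genes overlap antisense and neighbouring transcripts, and the use of strand in counting is not stated, so single members are uncertain. Of 9 Hox cofactors 7 rose, led by Meis1 (6.45 and 5.53 CPM on D2 and 56.97 and 51.1 CPM on D6, 3.17 ± 0.08), a TALE homeobox factor that binds DNA with Hox proteins. Its relatives Pbx3 and Pbx4 fell (-0.40 ± 0.05 and -0.64 ± 0.11).

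**Figure D3:**
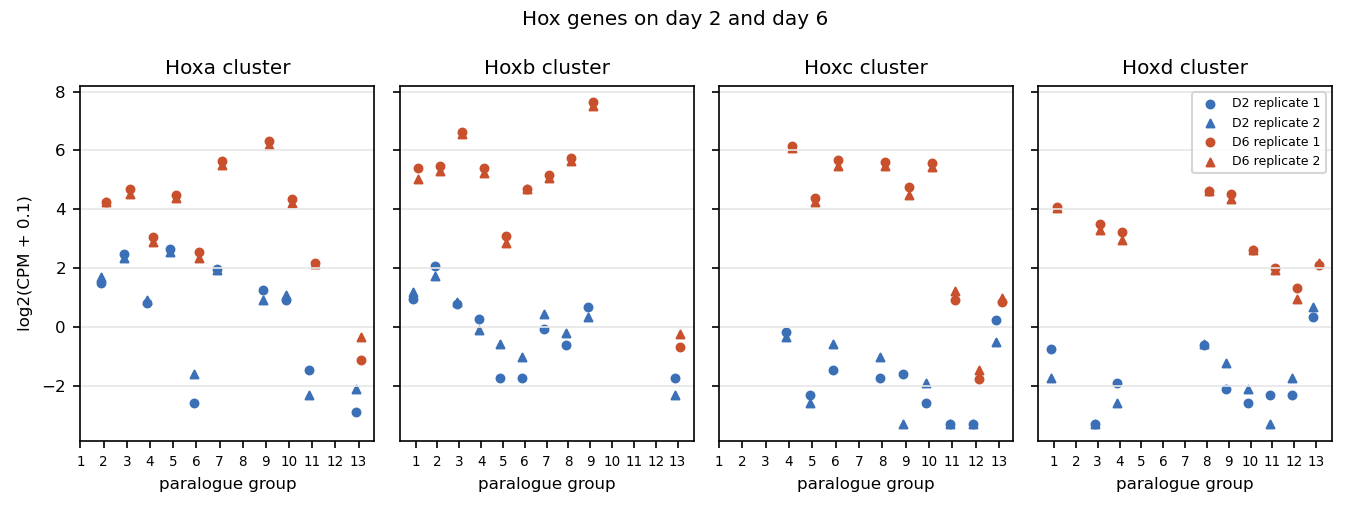
Levels of 38 of the 39 Hox genes by paralogue group (x axis) in the Hoxa, Hoxb, Hoxc and Hoxd clusters, as log2(CPM + 0.1), with D2 in blue, D6 in red, replicate 1 as a circle and replicate 2 as a triangle. D6 points lie above D2 points in every gene shown, with a small gap at Hoxc13.

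In the presomitic and somitic list 15 of 19 tested genes rose, 12 by more than 2-fold, and 2 fell (median 3.17, or 2.48 with the gene at 0 on D2 set to its bound). Dmrt2, of the dermomyotome, was at 0.131 and 0.132 CPM on D2 and 39.2 and 30.2 CPM on D6 (8.00 ± 0.26, adjusted p = 3.3e-16). Pax3, of dermomyotome and dorsal neural tube, was at 0.851 and 0.659 CPM on D2 and 45.9 and 36.6 CPM on D6 (5.76 ± 0.15). Foxc2, a forkhead factor of paraxial mesoderm, was at 0.196 and 0.0659 CPM on D2 and 10.6 and 8.17 CPM on D6 (6.12 ± 0.32, with 7.07 without D2 replicate 1). Msgn1, the presomitic bHLH factor, had 0 counts on D2 and 3 and 12 on D6 (at least 4.91-fold higher). Tbx6, a T-box factor of presomitic mesoderm, was at 1.24 and 2.30 CPM on D2 and 3.32 and 3.16 CPM on D6 (0.87 ± 0.25, or 0.49 and not called without D2 replicate 1). Tcf15 (Paraxis), a bHLH factor of somites, fell a little (16.4 and 16.8 CPM on D2 and 12.8 and 10.8 CPM on D6, -0.48 ± 0.10). Of the 12 early muscle and skeletal genes 7 were tested, and the muscle factors Myf5, Myod1, Myog and Myf6 were at most at 0.132 CPM in all 4 libraries. Pax9, a factor of the sclerotome, was at 0.328 and 0.329 CPM on D2 and 10.9 and 9.17 CPM on D6 (4.92 ± 0.20).

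Spinal cord progenitor factors split evenly, with 8 of 18 tested higher, all by more than 2-fold, and 8 lower, 6 by more than 2-fold (median 0.47). The rises included dorsal and broadly used factors. Besides Zic1 and Pax7 there was Msx3, a dorsal homeobox factor (0.393 and 0.0659 CPM on D2 and 19.9 and 19.4 CPM on D6, 6.39 ± 0.20, with 8.14 without D2 replicate 1 and 5.63 without D2 replicate 2). Irx3, an Iroquois factor, was another (7.47 and 6.65 CPM on D2 and 62.02 and 57.2 CPM on D6, 3.08 ± 0.08). Nkx6-1, a ventral factor, rose as well (0.590 and 0.329 CPM on D2 and 5.63 and 5.42 CPM on D6, 3.58 ± 0.24). The falls included factors already present on D2. Olig2, of motor neuron progenitors, was at 55.7 and 51.7 CPM on D2 and 4.12 and 3.74 CPM on D6 (-3.77 ± 0.08, adjusted p = 1.03e-18). Its neighbour in the family, Olig1, was at 71.5 and 68.9 CPM on D2 and 4.31 and 4.78 CPM on D6 (-3.95 ± 0.09). The neural factors Sox1 (76.2 and 75.1 CPM on D2 and 59.8 and 51.2 CPM on D6, -0.45 ± 0.06) and Pax6 (-0.62 ± 0.10) were also lower on D6, by less than 2-fold. Among 18 proneural and neuronal genes 8 rose and 7 fell. Neurog2, a proneural factor, was at 0.0655 and 0.198 CPM on D2 and 6.57 and 6.81 CPM on D6 (5.63 ± 0.29, with 6.59 without D2 replicate 2). Stmn2 (100.1 and 97.6 CPM on D2 and 18.2 and 24.7 CPM on D6, -2.20 ± 0.08) and Elavl3 (-2.80 ± 0.10), of differentiated neurons, fell. The neuron genes Elavl4 (6.65 and 6.79 CPM on D2 and 13.2 and 12.9 CPM on D6, 0.957 ± 0.09) and Dcx (0.855 ± 0.15) rose. Of 12 hindbrain genes 8 rose, such as Hoxb1 (4.21 ± 0.15), and 3 fell, such as Phox2a (-4.03 ± 0.28). Of the 15 forebrain and midbrain genes 11 were tested, 3 rose and 3 fell, and the forebrain factors Six3, Rax and Emx1 were at most at 0.1965 CPM in all 4 libraries. En1, of midbrain and somites (0.262 and 0.395 CPM on D2 and 9.94 and 10.1 CPM on D6, 4.92 ± 0.20), and En2, of midbrain (2.37 ± 0.10), were among the rises.

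Markers of other cell types were detected to unequal extents. Of 13 endoderm genes tested 10 rose and 1 fell. The number lower was 2 with upper-quartile scaling, with no filter on low counts or without D2 replicate 2. Sox17, the endoderm factor, was at 2.85 and 3.13 CPM on D2 and 17.5 and 21.6 CPM on D6 (2.71 ± 0.15). The 6 endoderm markers, all higher, summed to 33.4 to 35.4 CPM on D2 and 105 to 113 CPM on D6. The 6 lateral plate and heart markers summed to 20.9 to 22.1 and 29.7 to 32.8 CPM (1 rose, 2 fell). Most of this was Gata4, also an endoderm marker (17.8 and 18.9 CPM on D2 and 28.3 and 31.5 CPM on D6). In the longer list with intermediate mesoderm 6 of 14 tested rose, 4 by more than 2-fold, and 5 fell, 3 by more than 2-fold. The 6 endothelial and blood markers summed to 29.4 to 34.5 and 14.3 to 15.1 CPM (4 fell). Most of this was Pecam1 (20.7 and 23.8 CPM on D2 and 10.8 and 11.7 CPM on D6). In the longer endothelial and blood list 3 of 10 tested rose, 2 by more than 2-fold, and 6 fell, 4 by more than 2-fold. Notochord markers summed to at most 10.0 CPM, with Noto at 0 on D6, and trophoblast markers to at most 15.2 CPM. The 6 neuron markers summed to 220 to 225 CPM on D2 and 83.7 to 86.8 CPM on D6 (2 rose, 4 fell). The 6 germ cell markers summed to 97.8 to 103 and 54.2 to 61.9 CPM (1 rose, 2 fell). The 6 neural crest markers stood at 40.2 to 43.0 CPM on D2 and 35.2 to 39.1 CPM on D6 (3 rose, 3 fell). Fibroblast markers bear on the feeders of the starting culture. Of the 6, Col1a1 (47.4 and 59.5 CPM on D2 and 7.31 and 9.04 CPM on D6, -2.71 ± 0.11), Thy1, Dcn and Postn fell. Lum was at 0.360 and 0.296 CPM on D2 and 0.225 and 0.129 CPM on D6 and not called. Col3a1 rose (19.8 and 24.7 CPM on D2 and 180.1 and 166 CPM on D6, 2.96 ± 0.09). Their sum, 92.2 to 113 CPM on D2 and 180 to 192 CPM on D6, is thus mostly Col3a1 on D6.

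Cell adhesion genes changed in opposite directions. Of 17 epithelial genes 15 fell, 14 by more than 2-fold, and 1 rose (median -2.08). Cdh1 (E-cadherin) was at 719 and 737 CPM on D2 and 116 and 132 CPM on D6 (-2.56 ± 0.07, adjusted p = 3.4e-17). The adhesion molecule Epcam was at 349 and 357 CPM on D2 and 51.2 and 60.6 CPM on D6 (-2.66 ± 0.07). The 2 furthest falls of the list were of regulators of epithelial identity. The splicing factor Esrp1 was at 127 and 126 CPM on D2 and 10.5 and 12.2 CPM on D6 (-3.48 ± 0.08). The transcription factor Grhl2 was at 43.2 and 42.3 CPM on D2 and 3.89 and 4.78 CPM on D6 (-3.30 ± 0.10). Keratins did not follow. Krt8 rose (35.9 and 35.04 CPM on D2 and 52.4 and 58.2 CPM on D6, 0.64 ± 0.11, adjusted p = 2.43e-05) and Krt18 was not called (0.21 ± 0.11, called higher with the 4 libraries of D2 and D6 alone). Of 16 mesenchymal and matrix genes 15 rose, 12 by more than 2-fold, and Fn1 (fibronectin) fell (789 and 863 CPM on D2 and 578 and 650.1 CPM on D6, -0.43 ± 0.05). Cdh2 (N-cadherin) was at 35.9 and 34.9 CPM on D2 and 279.7 and 257 CPM on D6 (2.92 ± 0.06). Cdh11 was at 4.13 and 4.45 CPM on D2 and 89.6 and 83.8 CPM on D6 (4.34 ± 0.13). Factors known to repress epithelial genes rose as well, Zeb1 to 58.6 and 53.3 CPM (2.24 ± 0.07), Zeb2 by 1.58 ± 0.07, Twist1 by 2.65 ± 0.11 and Snai2 by 1.49 ± 0.17. The fibroblast and endoderm markers given above moved over the same days, and their part in the mesenchymal and matrix counts was not tested. Per kilobase, Cdh1 was at 159 and Cdh2 at 4.39 RPKM on D2, and at 27.1 and 33.3 RPKM on D6, so Cdh1 had lost its lead. Among the 22 classical cadherins and protocadherins 13 rose and 6 fell, with Pcdh1 (-3.58 ± 0.08) and Cdh3 (-2.50 ± 0.09) among the falls and Pcdh7 (4.67 ± 0.13) among the rises.

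Zeb, Snail and Slug proteins bind the E-box CAGGTG, which reads CACCTG on the other strand. A RefSeq promoter was given for 11 of the 17 epithelial genes, and all 11 held it on either strand, Krt8 and Krt18 included. It was found in 20.2% of all 32851 promoters and in 2 of the 10 mesenchymal and matrix genes with a promoter, Snai1 and Sparc. The stretches before the start of 3 epithelial genes that fell are shown because they hold the hexamer more than 1 time, 5′ to 3′ in the direction of the gene with the matches in capitals. Crb3 is a polarity gene (29.05 and 28.3 CPM on D2 and 5.89 and 6.36 CPM on D6, -2.23 ± 0.10). Ap1m2 is an adaptor of epithelial sorting (52.7 and 52.1 CPM on D2 and 15.9 and 17.7 CPM on D6, -1.64 ± 0.08).
Crb3 (chr17:57062063-57062200, plus strand): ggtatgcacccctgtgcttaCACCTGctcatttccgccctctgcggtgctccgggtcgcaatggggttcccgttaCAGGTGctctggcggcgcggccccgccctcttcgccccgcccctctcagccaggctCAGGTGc
Ap1m2 (chr9:21312334-21312434, minus strand): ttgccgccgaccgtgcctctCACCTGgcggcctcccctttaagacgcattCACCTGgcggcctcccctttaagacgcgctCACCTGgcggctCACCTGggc
Epcam (chr17:87635772-87635978, plus strand): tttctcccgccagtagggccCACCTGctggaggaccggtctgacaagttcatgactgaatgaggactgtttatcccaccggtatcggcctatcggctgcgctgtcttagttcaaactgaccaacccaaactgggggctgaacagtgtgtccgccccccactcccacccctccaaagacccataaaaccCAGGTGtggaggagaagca
Since all 11 held the hexamer, it does not separate the 9 that fell from Krt8, which rose, and Krt18.

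Retinoic acid genes mostly rose: 10 of 16 tested, 8 by more than 2-fold, against 3 falls (median 1.16). Aldh1a2, the enzyme that makes retinoic acid in somites, was at 2.32 and 2.04 CPM on D2 and 21.02 and 18.4 CPM on D6 (3.17 ± 0.13). Stra6, the importer of its precursor, was at 4.81 and 5.07 CPM on D2 and 138 and 138 CPM on D6 (4.80 ± 0.07, adjusted p = 1.5e-21). The binding proteins Crabp2 (22.9 and 22.1 CPM on D2 and 354 and 316 CPM on D6, 3.90 ± 0.06) and Crabp1 (2.62 ± 0.07) rose. Cyp26a1, which breaks retinoic acid down, rose too (2.16 and 2.57 CPM on D2 and 13.3 and 14.3 CPM on D6, 2.54 ± 0.15). The receptors changed differently, Rarb rising (1.998 and 1.71 CPM on D2 and 13.2 and 11.2 CPM on D6, 2.71 ± 0.13). Rarg fell (136 and 135 CPM on D2 and 45.4 and 47.8 CPM on D6, -1.54 ± 0.05). Since the labels leave the vitamin A content of the medium open for both days, its part in these values was not tested. Retinoic acid receptors bind direct repeats of a hexamer with 5 bases between them, searched here as TTCANNNNNAGTTCA on both strands. It was found in 0.125% of all promoters and in 2 of the 13 listed genes with a promoter, Rarb and Cyp26a1, the receptor and the breakdown enzyme that retinoic acid is known to induce. Both stretches are shown 5′ to 3′ in the direction of the gene, with the repeat in capitals.
Rarb (chr14:16575493-16575547, minus strand): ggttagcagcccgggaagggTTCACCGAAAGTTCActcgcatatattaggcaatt
Cyp26a1 (chr19:37697756-37697807, plus strand): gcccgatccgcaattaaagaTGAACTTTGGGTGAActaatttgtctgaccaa
Of the listed genes with a promoter and no match, Stra6 and Aldh1a2 rose and Rarg and Rara fell.

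Genes of the Bmp and Tgf-beta branches went different ways. Of 20 Bmp genes 16 rose, 10 by more than 2-fold, and 0 fell in edgeR, DESeq2 or limma-voom, or at an unadjusted edgeR p under 0.05 (median 1.09). The target Msx1, a homeobox factor, was at 0.688 and 0.395 CPM on D2 and 64.2 and 67.9 CPM on D6 (6.92 ± 0.12, adjusted p = 2.66e-20). The inhibitors of differentiation Id1 (3.60 and 3.26 CPM on D2 and 56.9 and 47.9 CPM on D6, 3.93 ± 0.10), Id2 (3.27 ± 0.10) and Id3 (3.80 ± 0.11) rose together. The ligand genes Bmp4 (1.28 and 1.48 CPM on D2 and 9.14 and 9.75 CPM on D6, 2.77 ± 0.17) and Bmp7 (1.36 ± 0.07) rose too. So did the antagonist Nog (0.196 and 0.165 CPM on D2 and 4.09 and 3.91 CPM on D6, 4.44 ± 0.27). Of 18 Tgf-beta, Activin and Nodal genes 13 fell, 9 by more than 2-fold, and 4 rose (median -1.09). The ligand Nodal was at 49.5 and 52.96 CPM on D2 and 11.04 and 13.2 CPM on D6 (-2.08 ± 0.07, adjusted p = 1.76e-15). Its feedback inhibitor Lefty1 was at 117 and 114 CPM on D2 and 28.4 and 35.99 CPM on D6 (-1.84 ± 0.07). The Activin subunit Inhba was at 3.86 and 5.37 CPM on D2 and 0.0644 and 0.0968 CPM on D6 (-5.77 ± 0.42). Gdf11, the ligand of the tail bud that the protocol supplies later, was the main exception among ligands, at 6.68 and 7.61 CPM on D2 and 58.8 and 53.8 CPM on D6 (2.98 ± 0.08). Its type I receptor Tgfbr1 was at 82.5 and 80.5 CPM on D2 and 224 and 212 CPM on D6 (1.42 ± 0.05).

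Fgf ligand genes were exchanged, with 9 of 18 lower, 7 by more than 2-fold, and 7 higher, 4 by more than 2-fold. Fgf5 and Fgf4 were among the falls, and Fgf15 (6.98 and 6.88 CPM on D2 and 40.9 and 41.3 CPM on D6, 2.57 ± 0.07), a ligand of neural tube, and Fgf8 among the rises. Of 16 Fgf receptors and Erk feedback genes 8 rose and 8 fell, 3 of them past the 2-fold test. The receptor Fgfr2 was at 27.2 and 26.7 CPM on D2 and 84.2 and 78.3 CPM on D6 (1.59 ± 0.05). The Erk phosphatase Dusp6 (231 and 225 CPM on D2 and 115 and 104 CPM on D6, -1.06 ± 0.05) and the inhibitor Spry2 (-0.98 ± 0.05) were lower. In the Notch list 15 of 20 rose and 4 fell. The ligand Dll1 was at 22.2 and 20.02 CPM on D2 and 78.9 and 74.7 CPM on D6 (1.86 ± 0.06). The effector repressor Hes5 was at 0.426 and 0.527 CPM on D2 and 10.9 and 9.04 CPM on D6 (4.38 ± 0.18). Hey1, of the same family, was at 2.98 and 2.90 CPM on D2 and 18.3 and 16.95 CPM on D6 (2.58 ± 0.10). The ligand Jag2 fell (-1.76 ± 0.06). Of 16 Hedgehog genes 11 rose and 3 fell. The co-receptors Boc (7.34 and 6.88 CPM on D2 and 75.4 and 64.05 CPM on D6, 3.29 ± 0.08) and Gas1 (3.22 ± 0.07) and the effector Gli3 (1.94 ± 0.06) rose. The receptor Ptch1 fell slightly (-0.22 ± 0.04), and the ligand Shh was at most at 0.226 CPM in all 4 libraries.

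**Figure D4:**
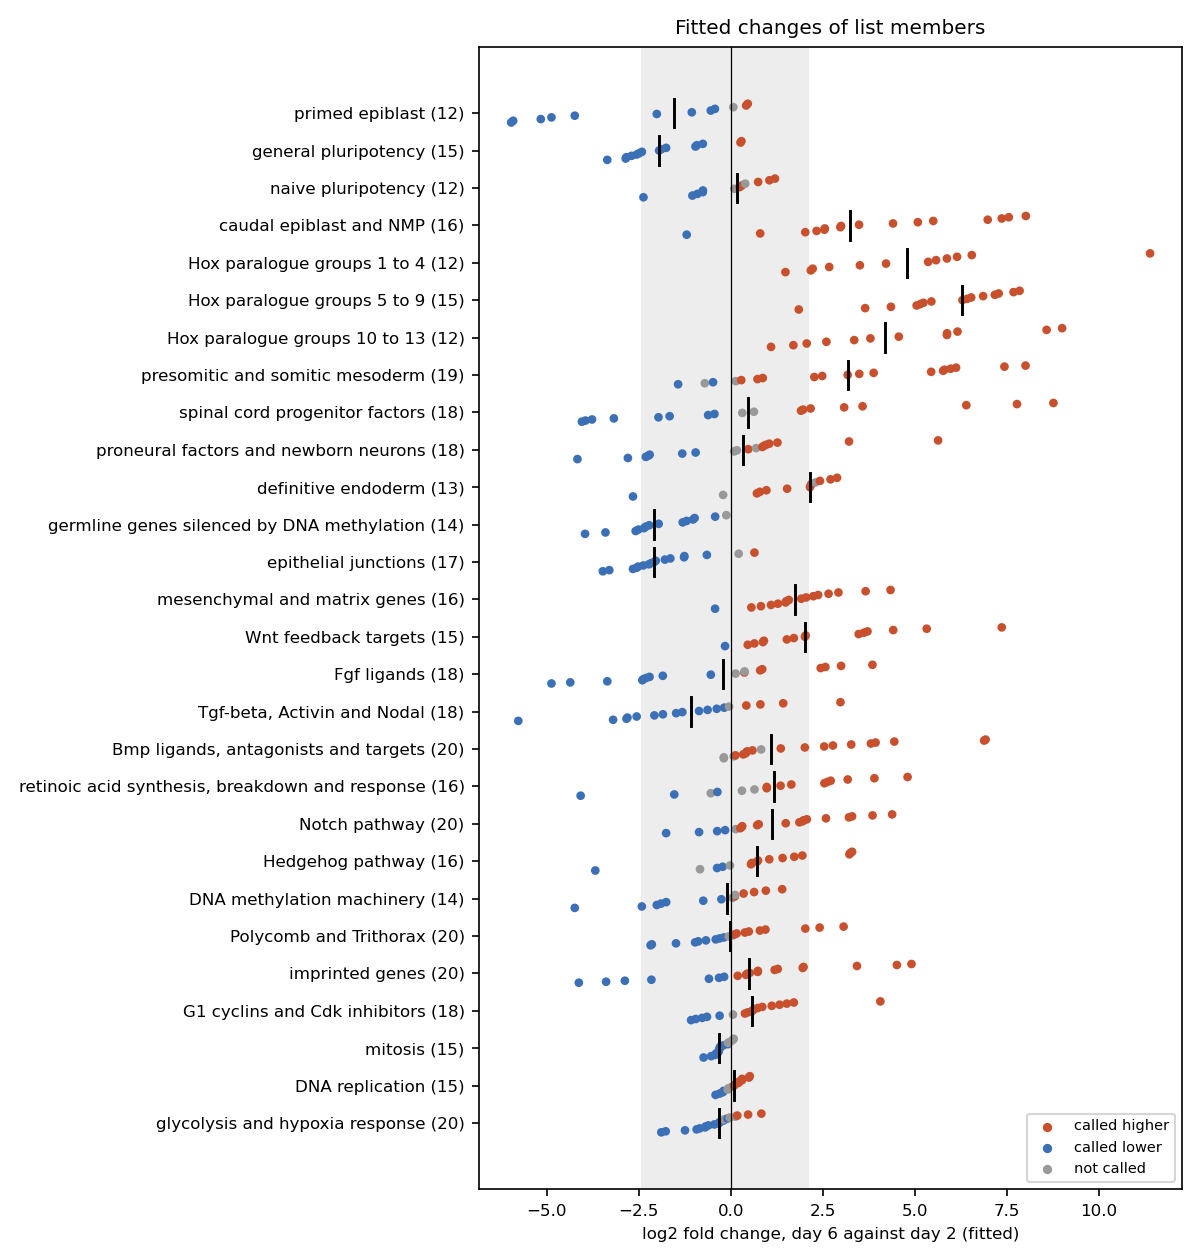
Fitted log2 fold change of each tested member (points) of 28 gene lists, with the number tested in brackets, the list median as a black bar and the range from the 5th to the 95th percentile of all tested genes (-2.41 to 2.1) as a grey band. Red points were called higher on D6, blue lower and grey not called. The 3 Hox lists and the NMP list lie almost wholly to the right, and the epithelial and germline lists to the left.

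Among cell cycle genes, those past the 2-fold test were in G1. Of 18 G1 genes 12 rose, 5 by more than 2-fold, and 5 fell. Ccnd2 and Ccnd1 were the cyclins that rose most, Ccnd1 at 239.6 and 243 CPM on D2 and 714 and 669.7 CPM on D6 (1.52 ± 0.04). Per kilobase Ccnd1, Ccnd2 and Ccnd3 were at 51.2, 4.55 and 9.66 RPKM on D2 and at 147, 75.98 and 14.3 RPKM on D6, so that Ccnd2 passed Ccnd3. Among Cdk inhibitors Cdkn1a rose (68.02 and 68.6 CPM on D2 and 163 and 179.6 CPM on D6, 1.32 ± 0.05) and Cdkn1b fell (-1.08 ± 0.05). Among Myc genes Myc rose (1.71 ± 0.07) and Mycn fell (-0.95 ± 0.04). Of 15 mitosis genes 11 fell, none by more than 2-fold, with Ccnb2 (-0.74 ± 0.05) and Plk1 (-0.53 ± 0.04) the largest. In edgeR 0 rose, 0 at an unadjusted p under 0.05 and 0 in DESeq2, but 1 rose without a filter or with the 4 libraries alone. Of 15 replication genes 8 rose and 4 fell, all by less than 2-fold.

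Lin28 and let-7 act against each other to time growth and differentiation. Of 14 Lin28 and let-7 target genes 7 rose and 7 fell. Lin28a, the RNA-binding protein that blocks let-7, was lower (888 and 872 CPM on D2 and 525 and 513 CPM on D6, -0.76 ± 0.04) and its relative Lin28b slightly higher (0.24 ± 0.04). Hmga2, a chromatin protein and let-7 target, was at 48.5 and 46.6 CPM on D2 and 635 and 585 CPM on D6 (3.68 ± 0.06, adjusted p = 2.36e-21). Igf2bp2, which binds Igf2 mRNA, was at 90.1 and 95.1 CPM on D2 and 360.5 and 333 CPM on D6 (1.90 ± 0.05). Of 20 imprinted genes 13 rose, 7 by more than 2-fold, and 7 fell, 4 by more than 2-fold. Plagl1 (Zac1), a zinc finger factor of the imprinted gene network, was at 13.4 and 13.4 CPM on D2 and 414 and 389 CPM on D6 (4.90 ± 0.06). H19, the noncoding neighbour of Igf2, was at 26.9 and 30.5 CPM on D2 and 112 and 110 CPM on D6 (1.95 ± 0.10). In the Dlk1 domain the coding gene and the noncoding RNAs went opposite ways. Dlk1 rose (2.55 and 2.44 CPM on D2 and 29.6 and 24.2 CPM on D6, 3.42 ± 0.12). Meg3 (43.1 and 39.6 CPM on D2 and 4.51 and 3.39 CPM on D6, -3.39 ± 0.11) and Rian (-2.88 ± 0.09) fell. Phlda2, a placental growth regulator (-4.13 ± 0.10), and Snrpn, a splicing protein gene (-2.16 ± 0.05), fell as well. Reads were not split by allele, so imprinting itself was not measured.

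Polycomb and Trithorax genes split evenly, 9 of 20 higher and 9 lower, 3 of each past the 2-fold test. Within the Cbx family, whose proteins bring Polycomb complex 1 to methylated histone H3, Cbx7 fell (381 and 371 CPM on D2 and 77.8 and 88.3 CPM on D6, -2.18 ± 0.05). In turn Cbx8 (1.05 and 1.09 CPM on D2 and 9.62 and 8.26 CPM on D6, 3.06 ± 0.16) and Cbx2 (0.94 ± 0.05) rose. Per kilobase Cbx7 still exceeded Cbx8 on D6, at 12.8 against 2.43 RPKM. Bmi1, a core subunit, rose (17.4 and 17.4 CPM on D2 and 72.1 and 69.2 CPM on D6, 2.02 ± 0.06). Phc1, a further subunit, was among the 10 largest losses in CPM (779 and 759.8 CPM on D2 and 138 and 145 CPM on D6, -2.45 ± 0.04). In complex 2 Ezh2 rose slightly (0.38 ± 0.04), and Ezh1 (-1.49 ± 0.07) and Phf19 (-2.15 ± 0.14) fell.

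In metabolic lists few genes passed the 2-fold test. Of 20 glycolysis and hypoxia genes 14 fell and 3 rose (median -0.32). The glucose carrier Slc2a3 was at 1466 and 1500 CPM on D2 and 779.9 and 871 CPM on D6 (-0.84 ± 0.05). The kinase Pdk1, which shuts pyruvate out of the mitochondrion, was at 273 and 275 CPM on D2 and 73.7 and 87.1 CPM on D6 (-1.77 ± 0.06). Gapdh and Pgk1 have many near-identical copies and are uncertain here. Of 15 cholesterol synthesis genes 10 rose and 3 fell, none past the 2-fold test, with Cyp51 highest (0.95 ± 0.03). Immediate early genes, which respond to growth signals and to handling, rose in 9 of 16 cases, 7 by more than 2-fold, and fell in 5, or in 3 without D6 replicate 1. Fosb was at 6.62 and 7.58 CPM on D2 and 143 and 148 CPM on D6 (4.36 ± 0.10, adjusted p = 3.34e-18). Fos was at 10.7 and 11.5 CPM on D2 and 142 and 144 CPM on D6 (3.69 ± 0.10). Klf6 (-0.95 ± 0.04) and Nr4a1 (-0.94 ± 0.08) were lower. Whether the days differed in handling was not tested.

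In the authors' deposited table, which gives log2 fold changes against D2 for 14983 genes, the D6 value had the same sign as here for 99.8% of genes and correlated at 0.997 with it across genes, which are not independent replicates. Of the 13089 genes called here 1374 are not listed in the authors' deposited table. Its FDR is for all groups together, with a looser limit than the 0.05 used here for D6 against D2. The lists thus come from unlike tests, and both sets of values come from the same series.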

How the data were processed

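RNA of 10 libraries of one differentiation course was deposited as a table of raw counts per gene, and D2 and D6 are compared here. Alignment and counting were done by the authors: the submitters' processing notes name HISAT2 2.1.0, featureCounts 1.6.3, STAR, limma and mm10, and which tool made which table, the settings and the use of strand are not given in the sources used here. A second deposited count table and the authors' deposited table of log2 fold changes with p-values (FDR) served as comparison only.

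The counts were fitted with edgeR 4.0.16 (R 4.3.3), all 10 libraries together, with TMM scaling, filterByExpr, the quasi-likelihood test of D6 against D2 and glmTreat for changes over 2-fold, and Benjamini-Hochberg adjustment over the 18818 genes tested. Standard errors are the log2 fold change divided by the root of F. CPM used TMM-scaled library sizes and RPKM the deposited gene length. Where a day had 0 counts of a gene, its fold is a bound from a floor of 3 counts summed over the 2 libraries. Ratios against 1 to 3 counts carry an exact 95% interval for counting error only. The members and gene lists were chosen with earlier results of these data known, and medians of lists stand beside the median of all tested genes, -0.01. Named by rule were the 15 largest rises and falls and 10 largest gains and losses in CPM among called genes without overlap and at 5 CPM or more on a day (names of predicted genes, clones, microRNAs, snoRNAs and pseudogenes and antisense names ending in os left out, with the antisense RNA Hoxaas3 still among them), and per list up to 6 called members with the largest change, up to 3 that moved against the majority and up to 3 not called, with a few core markers. Others (such as Bmp4 and Dnmt1) and all motifs were chosen after their values were seen. A few genes are not reported here. In data simulated from these libraries the edgeR test recovered 96% of 4-fold, 70% of 2-fold and 48% of 1.2-fold changes, and 17 of its 157 calls were false. The simulation changed only 50 of 18818 genes at each size, whereas 69.6% of genes were called in the data. Its rates therefore do not carry over to the calls reported here.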

Additional observations from a re-analysis of the deposited data

How the results depend on the processing

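The main counts were 6414 genes higher and 6675 lower, and 1496 and 2127 by the 2-fold test. DESeq2 called 1340 genes more than 2-fold lower and 1078 higher, and the cause was not tested. Upper-quartile scaling shifted the median of all genes by -0.063 and gave 5720 higher and 7361 lower, 43.7% higher among the called against 49.0%. Without 1 replicate in turn 5800 to 6067 genes were higher and 6126 to 6276 lower, 1326 to 1425 and 1868 to 2007 of them by more than 2-fold. The other alternatives (limma-voom, RLE factors, library totals, no filter, 1 CPM in 2 libraries, the second count table, only the 4 libraries) kept all 4 counts within 1.5 times.

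The deviation of replicate 1 in D2 and in D6 correlated at 0.0374 across genes. With 2 libraries a day this value cannot decide whether same-numbered libraries shared a culture or a batch. With the replicate number as a block in the fit 6440 genes were higher and 6719 lower, 1496 and 2120 by the 2-fold test. The sign of 2 genes not called turned, Uhrf1 at -0.017 with upper-quartile scaling and -0.026 without D6 replicate 1, and Esrrb at -0.024 without D6 replicate 2; Esrrb was called higher without D6 replicate 1 (0.21) and Uhrf1 without D6 replicate 2 (0.12). With 2 libraries a day, low genes such as Msgn1, Hoxc12 and Shh rest on few counts.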

Other observations

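Counts in other gene groups are to be read against all tested genes, of which 34.1% were higher and 35.5% lower on D6. Of 18 MHC class I and interferon response genes 10 fell, 6 by more than 2-fold, and 4 rose, or 2 with upper-quartile scaling. Bst2 (tetherin), an antiviral membrane protein, was at 117 and 112 CPM on D2 and 14.4 and 14.7 CPM on D6 (-2.98 ± 0.07), Ifitm3 at 42.1 and 41.3 CPM on D2 and 15.8 and 18.1 CPM on D6 (-1.30 ± 0.08) and the immunoproteasome subunit Psmb9 at 5.93 and 4.87 CPM on D2 and 1.03 and 1.26 CPM on D6 (-2.24 ± 0.18). Of 19 ephrins and Eph receptors 9 rose, 6 by more than 2-fold, and 5 fell, 0 by more than 2-fold (median 0.09). Epha5 was at 0.229 and 0.296 CPM on D2 and 30.9 and 30.4 CPM on D6 (6.85 ± 0.16), and Efnb1, a ligand gene, at 13.7 and 13.1 CPM on D2 and 66.1 and 65.9 CPM on D6 (2.30 ± 0.06), with Epha1 the largest fall (-1.03 ± 0.06). Of 15 p53 targets 9 fell and 5 rose: Pmaip1 (Noxa) was at 388 and 371 CPM on D2 and 161 and 165 CPM on D6 (-1.22 ± 0.05) and Trp53inp1 at 381 and 366 CPM on D2 and 150 and 149 CPM on D6 (-1.32 ± 0.05), opposite to Cdkn1a, which was called higher.

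Near on-off changes, by the mean CPM of the 2 libraries of a day, were one-sided: 19 genes had means under 0.1 CPM on D2 and of 5 CPM or more on D6, and 1 gene, the membrane protein gene Ms4a4d, was the reverse (5.93 and 5.83 CPM on D2 and 0.0322 and 0.129 CPM on D6, -6.12 ± 0.35, or -5.46 if D6 replicate 1 is left out and -7.34 if replicate 2 is). The 19 included Hoxd3, Pax7 and Evx1, the somite factor Uncx (0.0655 and 0.132 CPM on D2 and 6.86 and 4.55 CPM on D6, 5.80 ± 0.35), the ligand gene Bmp5 (3 counts on D2 and 388 on D6, ratio 127, 95% interval 43.1 to 618) and Lrrn3, a leucine-rich repeat membrane protein (0.0655 and 0.132 CPM on D2 and 13.7 and 12.8 CPM on D6, 7.02 ± 0.24). Of 14 linker and replication-independent histone genes 6 rose and 5 fell, or 3 fell in DESeq2 and limma-voom and 2 with no filter on low counts. The list did not move one way (median 0.02), with 1 rise and 1 fall past the 2-fold test. Linker histone H1f0, known from slowly dividing and differentiated cells, was at 79.7 and 80.9 CPM on D2 and 155 and 156 CPM on D6 (0.95 ± 0.04), and macroH2A (H2afy) at 132 and 139 CPM on D2 and 322 and 329.6 CPM on D6 (1.27 ± 0.04). Another linker histone gene, Hist1h1a, fell from a low level (2.29 and 1.84 CPM on D2 and 0.6115 and 0.6134 CPM on D6, -1.75 ± 0.28).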
